A study of Homo sapiens with 6 samples.

Results

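A set of 10 genes of epithelial identity and of the transition to a mesenchymal state was followed after RUVBL1 knockdown in the C4-2B-ENZR line. These are human prostate carcinoma cells with resistance to enzalutamide, a drug used against prostate cancer. The genes were taken by name: 6 epithelial members (CDH1, EPCAM, KRT8, KRT18, ESRP1 and GRHL2) and 4 mesenchymal members (CDH2, VIM, FN1 and ZEB1). All 10 were found among the 57820 genes of the count files by matching Ensembl identifiers to symbols. Of the 10, 8 passed the filter on low counts that left 16006 genes for testing, namely all 6 epithelial members but only FN1 and VIM of the mesenchymal 4. RNA was sequenced from cells transfected with the RUVBL1 siRNA (3 libraries) and from cells transfected with a negative-control siRNA (3 libraries). All libraries came from this single resistant line, grown in medium with fetal bovine serum. The sources used here do not give the siRNA sequences, the time after transfection or any drug in the medium. Nor do they say whether replicates came from separate cultures, so p-values reflect only how much these libraries differ, which could be technical.

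Epithelial cells hold to one another through E-cadherin junctions and carry a keratin filament network of paired type I and type II chains. In the epithelial to mesenchymal transition, repressors such as ZEB1 and SNAI1 bind E-box motifs at epithelial genes, E-cadherin gives way to N-cadherin, vimentin filaments replace keratins and fibronectin matrix is laid down. GRHL2 and the miR-200 family hold ZEB1 down in epithelial cells, and ESRP1 sets the epithelial pattern of splicing. In prostate cancer these genes are followed as signs of lineage change under therapy.

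The sequence link between ZEB1 and the miR-200 family is shown first. ZEB1 was almost uncounted in all 6 libraries, and a part of these miRNAs in that was not tested. Mature miRNAs are given from RefSeq on GRCh38.p14, 5′ to 3′, with the seed (bases 2 to 8) in capitals. The first 3 share the seed AAUACUG and the other 2 share AACACUG. Mature miRNAs were not measured here.
hsa-miR-200b-3p (chr1:1167160-1167181, + strand): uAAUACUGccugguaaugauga
hsa-miR-200c-3p (chr12:6963742-6963764, + strand): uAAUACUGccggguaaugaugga
hsa-miR-429 (chr1:1169055-1169076, + strand): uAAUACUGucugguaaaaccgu
hsa-miR-200a-3p (chr1:1167916-1167937, + strand): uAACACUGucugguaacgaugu
hsa-miR-141-3p (chr12:6964155-6964176, + strand): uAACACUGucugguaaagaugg

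The 3′ UTR of the ZEB1 transcript with the longest coding sequence in GENCODE 29 (2549 bases, GRCh38, + strand) held 9 matches to these seeds, 6 of CAGTATT and 3 of CAGTGTT. Among 18845 genes with an annotated 3′ UTR, 25% held at least 1 match of either kind, and 5, ZEB1 included, held 9 or more. Of the 1942 genes with a 3′ UTR within 20% of that length, 48.2% held at least 1 match and ZEB1 alone held 9. FN1 had 2 matches in 1101 bases and ESRP1 2 in 1577 bases, GRHL2 had 1, and none was found in CDH1, EPCAM, KRT8, KRT18, CDH2 or VIM. A match is a string of letters and says nothing of binding in these cells. The 9 sites of ZEB1 follow in order along the UTR, with the match in capitals.
ZEB1 site at chr10:31527619-31527641: ttgttttatcttatCAGTATTat
ZEB1 site at chr10:31527713-31527735: tgctaaatccgcttCAGTATTtt
ZEB1 site at chr10:31528032-31528054: aaaatcatcagaatCAGTGTTtg
ZEB1 site at chr10:31528142-31528164: taagtgccatttctCAGTATTtt
ZEB1 site at chr10:31528493-31528515: tgatttttacctatCAGTATTat
ZEB1 site at chr10:31528563-31528585: gtcttcaaacctggCAGTATTaa
ZEB1 site at chr10:31528783-31528805: gagatttgatttaaCAGTGTTat
ZEB1 site at chr10:31529023-31529045: ttaacttctataaaCAGTGTTgg
ZEB1 site at chr10:31529214-31529236: cttttcatcattatCAGTATTtt

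Promoters are shown for FN1 and VIM, because these mesenchymal members were counted at very different levels in the same libraries. RefSeq windows on GRCh38.p14 were held for 5 of the 10 members (KRT8, CDH2, VIM, FN1 and ZEB1). The 250 bases before the RefSeq start are printed 5′ to 3′ on the gene's strand. Capitals mark the cyclic AMP response element TGACGTCA (its own reverse complement) and the GC box GGGCGG on either strand, with overlapping matches joined. The E-box CACCTG bound by ZEB1 and SNAI1 was searched on both strands as well.
FN1 (chr2:215436069-215436318, - strand): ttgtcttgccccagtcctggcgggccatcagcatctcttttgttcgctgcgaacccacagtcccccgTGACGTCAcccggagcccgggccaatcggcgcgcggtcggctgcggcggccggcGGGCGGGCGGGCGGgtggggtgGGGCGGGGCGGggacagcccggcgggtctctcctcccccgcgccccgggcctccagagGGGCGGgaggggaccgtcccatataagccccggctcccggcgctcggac
VIM (chr10:17227991-17228240, + strand): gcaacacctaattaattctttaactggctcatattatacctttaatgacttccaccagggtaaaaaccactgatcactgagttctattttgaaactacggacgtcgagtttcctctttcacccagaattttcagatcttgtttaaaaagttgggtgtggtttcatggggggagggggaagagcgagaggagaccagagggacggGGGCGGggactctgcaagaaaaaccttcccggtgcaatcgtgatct
The FN1 window held 1 response element, a motif found in 1.65% of 35116 promoter windows of this length, and 6 GC boxes, a motif found in 42.6%. The VIM window held no response element and 1 GC box. Neither window held the E-box, which 17.5% of windows hold, and its absence from these letters says nothing of the factors. The FN1 window was 76.4% G and C with 32 CpG dinucleotides and the VIM window 46% with 8, against medians of 58% and 11 over all windows. Only 1 window was held for each of these genes, so other starts and the bases after the start were not searched. A relation of these letters to the levels of FN1 and VIM was not tested.

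Library totals ran from 18985542 to 25697804 estimated counts with RUVBL1 siRNA and from 24720504 to 36054489 with control siRNA. The siRNA target RUVBL1 stood at 57.1% ± 1.23 (SD, n = 3) of the control mean. Of 11 luminal prostate markers, 10 exceeded 1 CPM (counts scaled to the library total) in every library, while 4 of 6 basal markers (KRT5, KRT14, KRT17 and KRT6A) were listed at 0 throughout and the other 2, KRT15 and TP63, had at most 2 counts in a library. Both replicate 1 libraries listed 542 genes at 0 that had 20 or more counts in each of the other 4 libraries, and none of the 10 members was among them. All fold changes are RUVBL1 siRNA over control siRNA with TMM scaling. When libraries were scaled by their totals alone, the median log2 fold change of all tested genes moved by 0.0992 upward, so changes of about that size depend on the scaling. Mitochondrially encoded genes took 11.3% to 11.6% of counts with RUVBL1 siRNA and 13.5% to 13.8% with control siRNA, and every call of a member held without them. Over all tested genes, 42.2% were called at an edgeR adjusted p of 0.05, 19.1% higher and 23.1% lower, or 31.1% and 14.4% with totals alone.

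**Figure D1:**
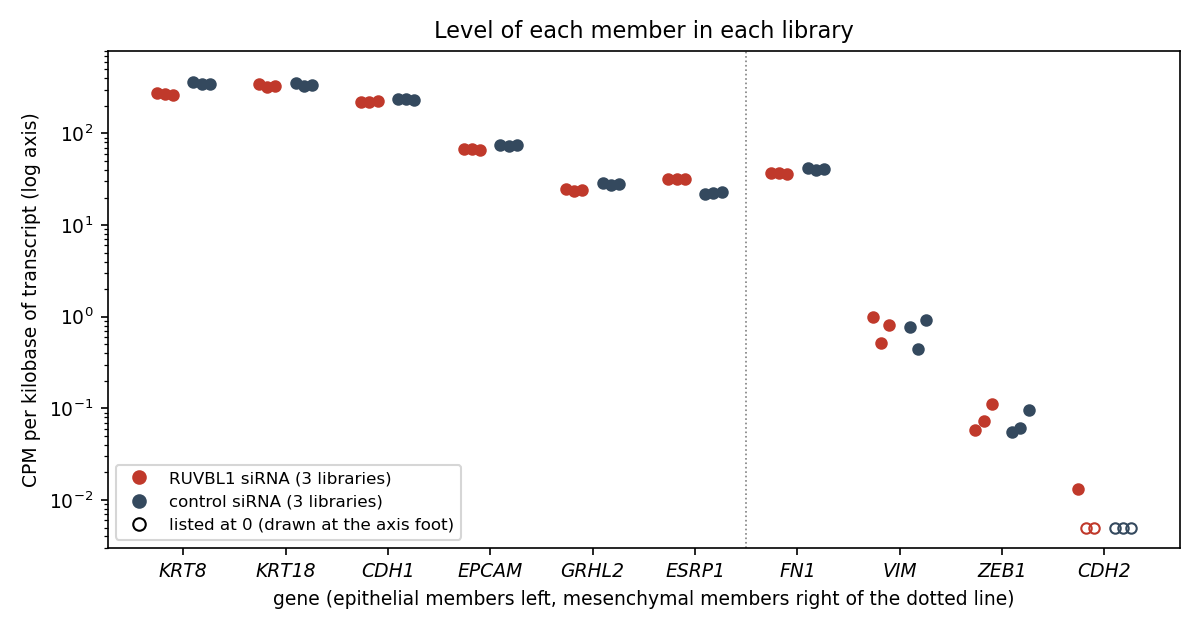
CPM per kilobase of transcript (log axis) for the 10 members, with 1 point per library, RUVBL1 siRNA in red and control siRNA in grey-blue. The 6 epithelial members and FN1 lie above 20 in all libraries, while VIM lies under 1, ZEB1 under 0.12 and CDH2 at 0 in 5 of the 6.

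The cells carried an epithelial pattern in both groups. Levels between genes were compared per kilobase of the median coding transcript length in GENCODE 29. KRT18 had the highest level with RUVBL1 siRNA, at 332 ± 11.6 CPM per kilobase of transcript, and 341 ± 9.35 with control siRNA. KRT8 stood at 270 ± 4.84 with RUVBL1 siRNA and 354 ± 10.2 with control siRNA (SD, n = 3 each). The ranges of the 2 keratins overlapped in the control libraries and did not in the RUVBL1 siRNA libraries. With the longest transcript as length, KRT18 led in both groups, so their order in the control libraries rests on the length used.

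CDH1 came next at 223 ± 1.18 with RUVBL1 siRNA and 237 ± 3.69 with control siRNA, a control level above that of 97.8% of the 15443 tested genes with a known length. EPCAM stood at 67.2 ± 0.734 with RUVBL1 siRNA and 74.4 ± 0.522 with control siRNA. FN1, a mesenchymal member, was at 36.7 ± 0.46 with RUVBL1 siRNA and 40.8 ± 0.912 with control siRNA, above 85.1% of tested genes. These levels left FN1 above both epithelial regulators. ESRP1 was at 31.7 ± 0.175 with RUVBL1 siRNA and 22.5 ± 0.579 with control siRNA, whereas GRHL2 was at 24.2 ± 0.353 with RUVBL1 siRNA and 28.3 ± 0.852 with control siRNA. The order of the pair was opposite in the 2 groups with no overlap in either, also with the longest transcript as length. VIM lay far below, at 0.776 ± 0.236 with RUVBL1 siRNA and 0.718 ± 0.247 with control siRNA. ZEB1 was lower still, at 0.081 ± 0.0274 with RUVBL1 siRNA and 0.0703 ± 0.0213 with control siRNA, and CDH2 was last.

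Of the 6 epithelial members, 5 fell and 1 rose with RUVBL1 siRNA, all past the edgeR threshold that 42.2% of tested genes passed. Their median log2 fold change was -0.22, against 0.0117 over all tested genes, and -0.12 against 0.111 with totals alone. With totals alone, 4 fell and 1 rose. The median size of a log2 fold change over all tested genes was 0.193, which EPCAM, GRHL2, ESRP1 and KRT8 exceeded and CDH1 and KRT18 did not. Every member that was called separated the groups completely, as did 52.6% of tested genes, and the exact two-sided permutation test then gave p = 0.1, the smallest that 20 assignments of 3 against 3 libraries allow. With labels swapped only between libraries of the same replicate number, the exact p was 0.25 for each of them, the smallest that 8 assignments allow.

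CDH1 (ENSG00000039068.14) encodes E-cadherin, the adhesion receptor of the adherens junction. Its normalized counts were 18648, 18720 and 18934 in the RUVBL1 siRNA libraries, against 21379, 21602 and 21061 in the control libraries. Every RUVBL1 siRNA library was below every control library, at 87.9% ± 0.697 (SD, n = 3) of the control mean. This was a log2 fold change of -0.19 with an SE of 0.0191 (edgeR adjusted p = 7.12e-06), and of -0.09 with totals alone (adjusted p = 0.00409).

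EPCAM (ENSG00000119888.6) encodes an epithelial adhesion molecule used to capture carcinoma cells. It had 2795, 2805 and 2761 normalized counts with RUVBL1 siRNA, against 3297, 3288 and 3329 with control siRNA. The groups did not overlap, and the fall to 84.3% ± 0.702 of the control mean had a log2 fold change of -0.25 (SE 0.0254, edgeR adjusted p = 7.23e-06).

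**Figure D2:**
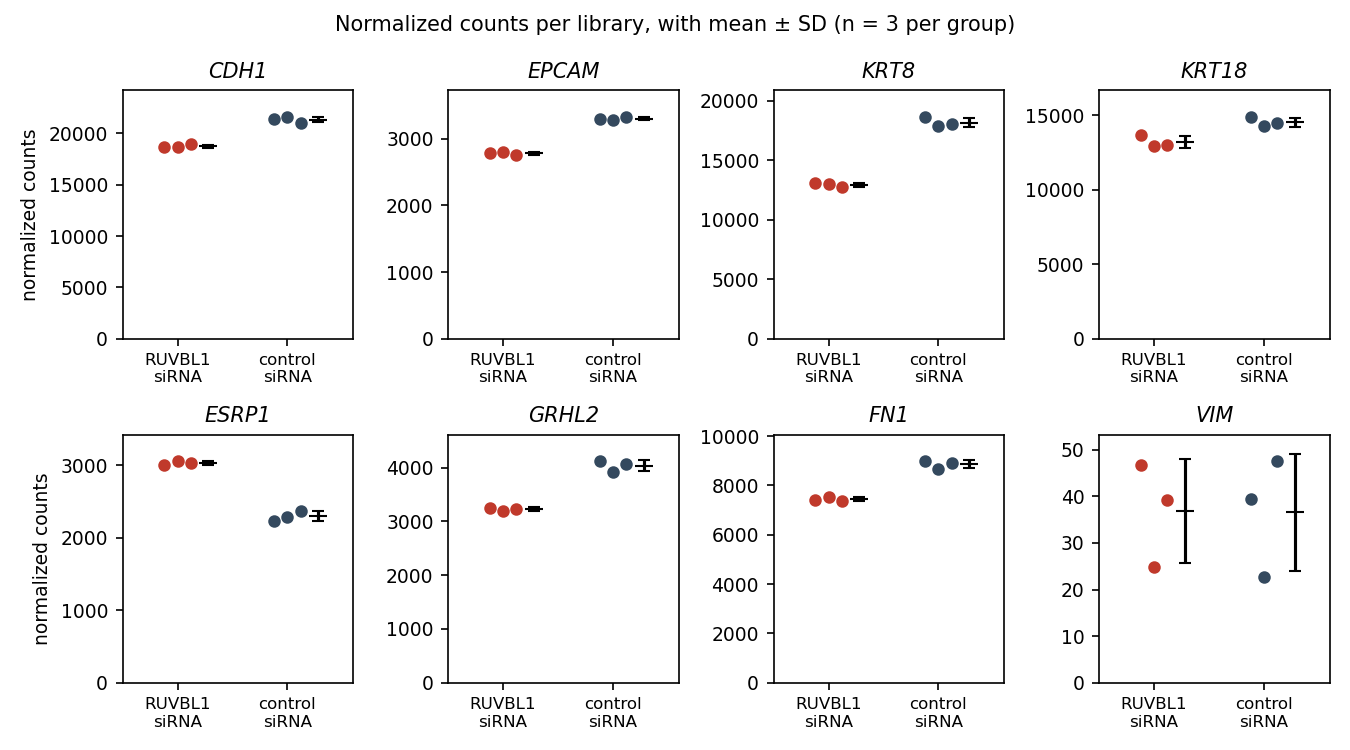
Normalized counts (linear axes from 0) of the 8 tested members in each library, RUVBL1 siRNA left and control siRNA right, with the mean and SD of the 3 libraries beside each group. ESRP1 is higher and CDH1, EPCAM, KRT8, KRT18, GRHL2 and FN1 are lower in all 3 RUVBL1 siRNA libraries, while the VIM points overlap.

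KRT8 (ENSG00000170421.7) and KRT18 (ENSG00000111057.6) encode the type II and type I keratins that pair into the filaments of simple and luminal epithelium, and they did not move alike. KRT8 fell furthest of the 6, with 13086, 12983 and 12730 normalized counts with RUVBL1 siRNA, against 18641, 17856 and 18046 with control siRNA. All 3 RUVBL1 siRNA libraries were far below the control range, at 71.1% ± 1.01 of the control mean. Its log2 fold change of -0.49 (SE 0.0213, edgeR adjusted p = 4.26e-09) was larger in size than that of 85.6% of tested genes.

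KRT18 had 13686, 12959 and 13014 normalized counts with RUVBL1 siRNA, against 14876, 14274 and 14464 with control siRNA. The groups stood apart narrowly, at 90.9% ± 2.78 of the control mean. On the log2 scale KRT18 fell by 0.14 (SE 0.0243, edgeR adjusted p = 0.000603), and with totals alone the change was -0.04 and was not called (adjusted p = 0.308), with the groups overlapping.

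The ratio of KRT8 to KRT18 counts within a library needs no scaling between libraries. It was 0.956, 1.00 and 0.978 with RUVBL1 siRNA, against 1.25 in each of the 3 control libraries, so the pair changed unequally under any scaling. This ratio and the others below were chosen after the values were seen and carry no test. The genes overlap on opposite strands in GENCODE 29, and the sources used here do not say whether counting used strand, so the split of reads between them is uncertain. Both have processed pseudogenes: 51 named copies of KRT8 held counts equal to between 2.48% and 3.45% of KRT8 with RUVBL1 siRNA and between 2.07% and 2.4% with control siRNA, and 67 copies of KRT18 held at most 0.718% of KRT18 in any library. Adding these counts to the parents left both calls in place.

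GRHL2 (ENSG00000083307.6) encodes a transcription factor that keeps CDH1 and other junction genes active. It had 3256, 3185 and 3238 normalized counts with RUVBL1 siRNA, against 4115, 3917 and 4069 with control siRNA. The RUVBL1 siRNA libraries lay together below the control range, at 80.0% ± 0.914 of the control mean. GRHL2 thus had a log2 fold change of -0.32 (SE 0.0263, edgeR adjusted p = 9.48e-07), or -0.22 with totals alone.

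ESRP1 (ENSG00000104413.11), the epithelial splicing regulator, was the one epithelial member that rose. It had 3013, 3057 and 3028 normalized counts with RUVBL1 siRNA, against 2232, 2294 and 2376 with control siRNA. Every RUVBL1 siRNA library exceeded every control library. The rise was 1.32-fold (log2 fold change 0.40, SE 0.0304, edgeR adjusted p = 5.13e-07), and 1.41-fold with totals alone. Counts per gene do not show the splicing that ESRP1 controls.

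ESRP1 moved apart both from its paralogue ESRP2 and from GRHL2. ESRP2 had a log2 fold change of -0.07, or 0.03 with totals alone, and was not called (edgeR adjusted p = 0.27). Without RUVBL1 siRNA replicate 1 it was called lower (log2 fold change -0.13, edgeR adjusted p = 0.0107). The count ratio of ESRP1 to ESRP2 was 2.01, 2.32 and 2.25 with RUVBL1 siRNA, against 1.54, 1.57 and 1.65 with control siRNA. The ratio of ESRP1 to GRHL2 was 0.925, 0.96 and 0.935 with RUVBL1 siRNA, against 0.542, 0.586 and 0.584 with control siRNA, without overlap in either case.

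**Figure D3:**
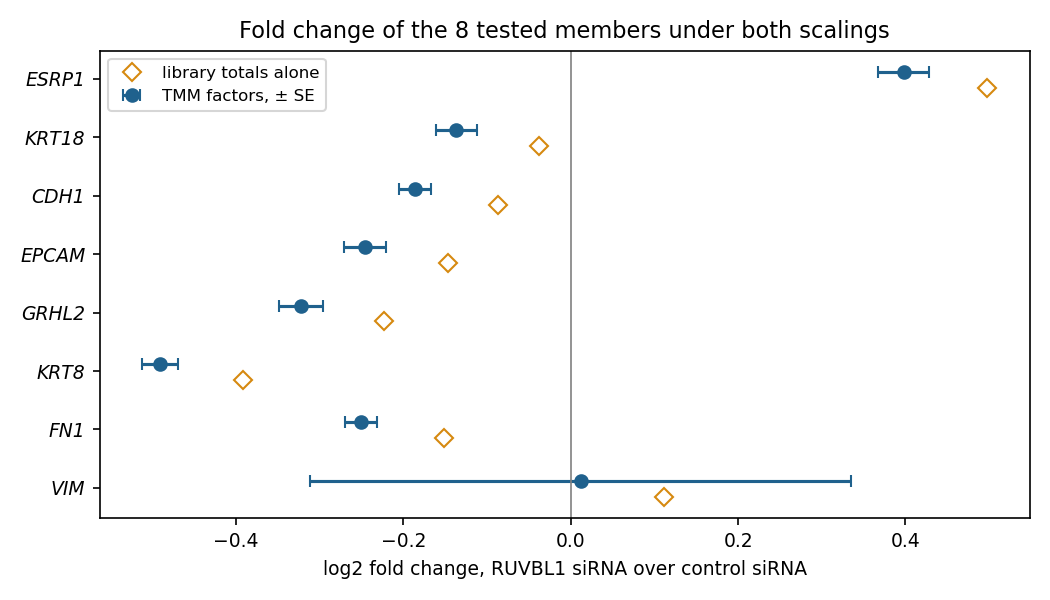
Log2 fold change, RUVBL1 siRNA over control siRNA, of the 8 tested members with TMM factors (filled points, bars ± SE) and with library totals alone (open diamonds). Totals alone shift each value to the right by about 0.1, which brings KRT18 to -0.04 and leaves ESRP1 higher and CDH1, EPCAM, GRHL2, KRT8 and FN1 lower.

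The mesenchymal members showed no joint rise. FN1 fell, VIM was not called, and ZEB1 and CDH2 had too few counts to be tested. Of the 2 tested, 0 rose, beside 19.1% of all tested genes, and 1 fell, beside 23.1%.

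ZEB1 (ENSG00000148516.17) encodes the E-box repressor of CDH1 and of the miR-200 genes. It had 6.0, 10.2 and 14.2 counts in the RUVBL1 siRNA libraries, against 7.41, 11.9 and 15.4 in the control libraries. The groups overlapped throughout, and without the low-count filter ZEB1 had a log2 fold change of 0.10 (SE 0.51, edgeR adjusted p = 0.951 over 28599 genes). ZEB1-AS1, an antisense gene that overlaps ZEB1 and was added after its values were seen, had more counts than ZEB1. It had 317, 427 and 358 counts with RUVBL1 siRNA, against 302, 400 and 339 with control siRNA, and after scaling it was higher with RUVBL1 siRNA (log2 fold change 0.39, edgeR adjusted p = 0.000828). The strand setting being unknown, reads of the 2 genes may not have been told apart.

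CDH2 (ENSG00000170558.4) encodes N-cadherin. It had 1 count in RUVBL1 siRNA replicate 1 and 0 in the other 5 libraries. A count of 0 allowed up to 0.117 and 0.128 CPM in RUVBL1 siRNA replicates 2 and 3, and between 0.0832 and 0.121 in the control libraries (3 counts, counting error only). No difference was detectable at this depth.

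VIM (ENSG00000026025.9) encodes vimentin, the intermediate filament of mesenchymal cells. It had 35, 25 and 36 counts with RUVBL1 siRNA, against 36, 30 and 52 with control siRNA. The groups overlapped fully. For VIM the log2 fold change of 0.01 had an SE of 0.323 (edgeR adjusted p = 0.987), and the 95% interval of the ratio, from the SE with 4 degrees of freedom, ran from 0.541 to 1.88. Changes of VIM within that interval are not excluded, and the smallest change that would have been called was not estimated.

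FN1 (ENSG00000115414.14) encodes fibronectin, which binds integrins and assembles into matrix. It was the only mesenchymal member with a high count, at 7424, 7535 and 7360 normalized counts with RUVBL1 siRNA, against 8975, 8675 and 8922 with control siRNA. All RUVBL1 siRNA libraries were below the control range, at 84.0% ± 0.999 of the control mean. FN1 had a log2 fold change of -0.25 (SE 0.0192, edgeR adjusted p = 5.09e-07), or -0.15 with totals alone (adjusted p = 8.34e-05).

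FN1 and CDH1 fell by similar amounts. The count ratio of CDH1 to FN1 was 2.51, 2.48 and 2.57 with RUVBL1 siRNA, against 2.38, 2.49 and 2.36 with control siRNA, and the groups overlapped. Of 14 matched stromal, endothelial and immune markers, DCN, LUM and CD3E were listed at 0 in every library and 4 exceeded 1 CPM in all of them. The summed level of the list ran from 19.9 to 22.2 CPM with RUVBL1 siRNA and from 24.2 to 26.2 with control siRNA. Within the list 1 gene, CD68 of macrophages and lysosomes, was called, with 6.01 to 7.30 CPM in RUVBL1 siRNA libraries and 11.1 to 12.2 CPM in control libraries. The fibroblast and pericyte gene PDGFRB (edgeR adjusted p = 0.763), the endothelial gene VWF (adjusted p = 0.487) and the collagen gene COL1A1 (adjusted p = 0.975) were not called. In bulk RNA, fewer cells with a transcript and less of it per cell cannot be told apart.

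**Figure D4:**
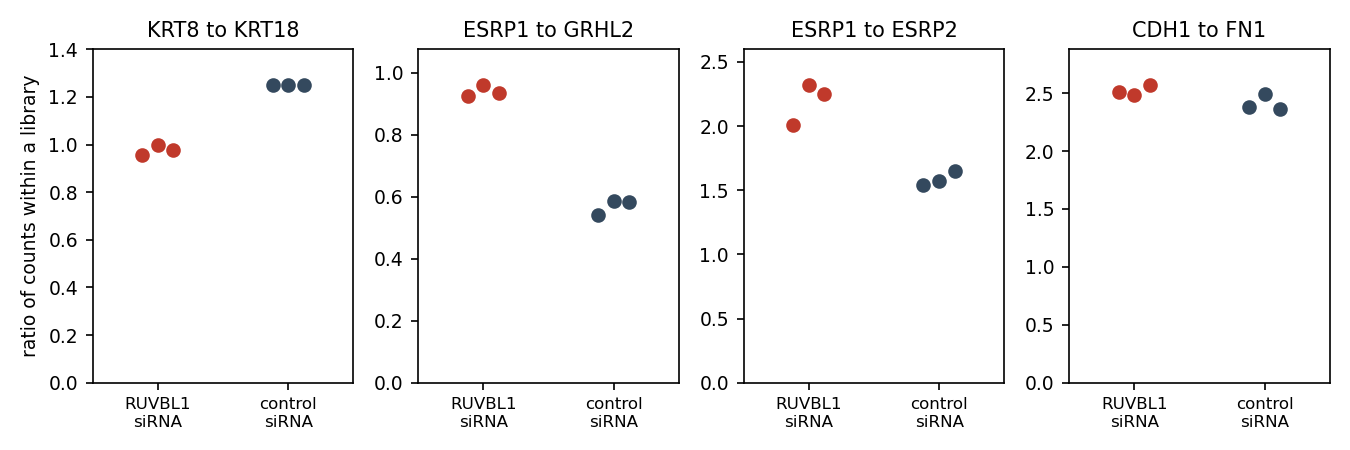
Ratios of counts within each library, with 1 point per library, RUVBL1 siRNA left and control siRNA right, on linear axes from 0. KRT8 to KRT18 is lower, and ESRP1 to GRHL2 and ESRP1 to ESRP2 are higher, in all RUVBL1 siRNA libraries, while CDH1 to FN1 overlaps between the groups.

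Genes around these members were then read from lists, beside which stand all tested genes with 19.1% higher, 23.1% lower and a median log2 fold change of 0.0117. With totals alone, all tested genes had 31.1% higher, 14.4% lower and a median of 0.111, and totals-alone values of the lists stand beside these. Of 16 tested adherens junction and desmosome genes, 10 fell and 2 rose, with a median log2 fold change of -0.16, and with totals alone 6 fell and 3 rose. CTNNB1, the beta-catenin that binds the E-cadherin tail, fell by 0.30 on the log2 scale, with 6176 ± 52.7 normalized counts in RUVBL1 siRNA libraries and 7583 ± 49.0 in control libraries. The desmosomal genes EVPL and DSG2 fell by 0.39 and 0.29. CTNND1, the p120 catenin that keeps cadherin at the membrane, rose by a log2 of 0.10 (edgeR adjusted p = 0.000485). PKP4 rose by a log2 of 0.10 (edgeR adjusted p = 0.0487). That call was lost in limma-voom (adjusted p = 0.0512) and without any single library except RUVBL1 siRNA replicate 3 (0.0931 to 0.174). It was also lost without the low-count filter (0.0738), without mitochondrially encoded genes (0.0524) and in replicates 2 and 3 alone (0.122).

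Of 22 tested tight junction and polarity genes, 12 fell and 6 rose (median log2 fold change -0.15), and with totals alone 7 fell and 8 rose. Claudins went both ways. CLDN7 fell by 0.56 on the log2 scale, to 7005 ± 94.2 normalized counts with RUVBL1 siRNA, against 10300 ± 44.3 with control siRNA (edgeR adjusted p = 3.74e-10). CLDN3 rose by a log2 of 0.15. SCRIB, a basolateral polarity scaffold, fell by 0.80, and the junction adhesion gene F11R by 0.41. The junction scaffold gene TJP1 rose by 0.30, with 11390 ± 140 normalized counts in RUVBL1 siRNA libraries and 9277 ± 120 in control libraries.

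Of 21 tested epithelial transcription, splicing and surface genes, 6 fell and 4 rose, and with totals alone 5 fell and 7 rose. Their median log2 fold change was -0.05, or 0.05 with totals alone, against 0.0117 and 0.111 over all tested genes. The ETS factors EHF and ELF3 moved apart, EHF falling by 0.52 on the log2 scale and ELF3 rising by 0.23. The membrane protease gene ST14 and its inhibitor gene SPINT1 fell by 0.28 and 0.36. The transport gene MAL2 rose by 0.30, and OVOL2, a repressor of ZEB1 that was named after its values were seen, rose 1.44-fold. KLF4, a transcription factor of differentiating epithelium, rose 1.90-fold, with 178 ± 12.4 normalized counts in RUVBL1 siRNA libraries and 93.4 ± 8.98 in control libraries (edgeR adjusted p = 6.69e-05). MIR200CHG, the host transcript of miR-200c and miR-141, had 63.0 and 102 counts in RUVBL1 siRNA replicates 2 and 3, against 81 and 50 in control replicates 2 and 3, and was listed at 0 in both replicate 1 libraries. It is thus one of the 542 genes at 0 in replicate 1 alone, and whether those zeros are absence or processing was not tested. In the fit of all 6 libraries, which holds these zeros, MIR200CHG was not called (SE 1.93, edgeR adjusted p = 0.848). MIR200CHG was called higher in replicates 2 and 3 alone (log2 fold change 0.67, adjusted p = 0.0346). Its direction turned without RUVBL1 siRNA replicate 3, in a fit that also holds the zeros. Of 3 other tested keratin genes, KRT10, best known from stratified epidermis, rose by a log2 of 0.37. KRT80, named after its values were seen, fell by 2.63, with 13, 16 and 19 counts in RUVBL1 siRNA libraries and 114, 142 and 112 in control libraries.

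**Figure D5:**
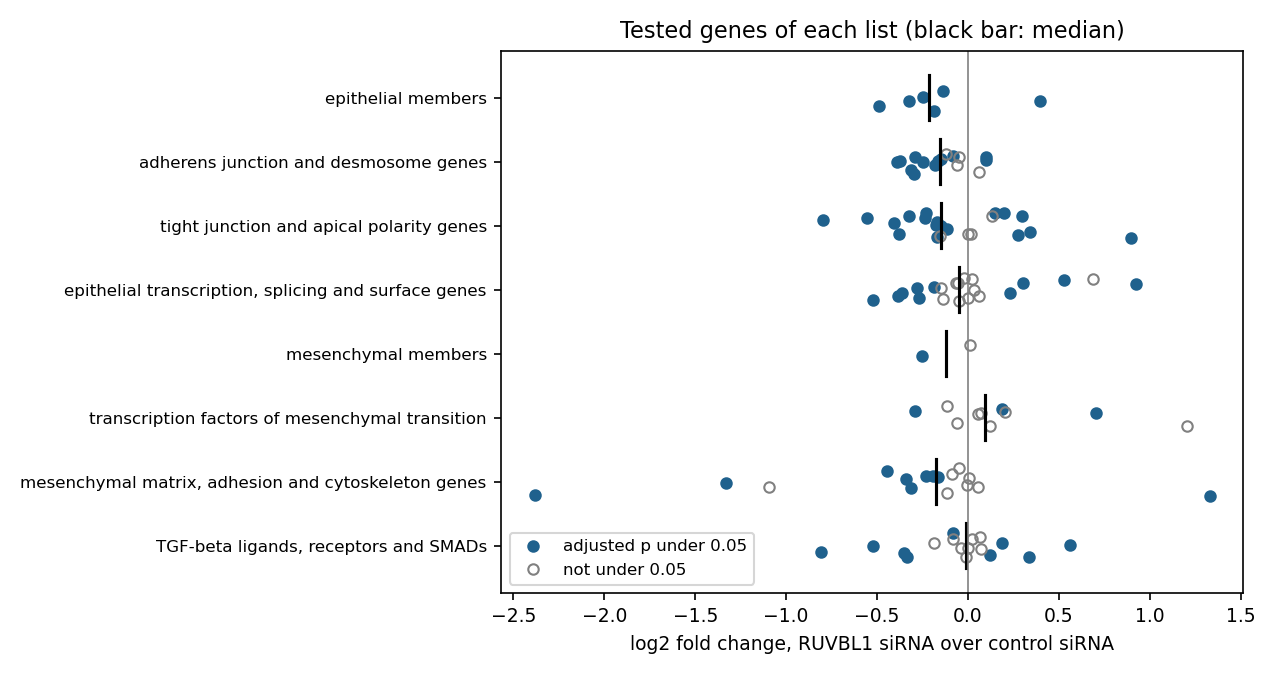
Log2 fold change, RUVBL1 siRNA over control siRNA, of each tested gene on the member lists and on 6 lists around them, with filled points for an edgeR adjusted p under 0.05 and a black bar at the median. With TMM scaling, most called epithelial junction genes lie left of 0, with called genes on both sides in each list except the mesenchymal members. With totals alone, 6 adherens junction and desmosome genes fell and 3 rose, and 7 tight junction and polarity genes fell and 8 rose. Over all tested genes, 14.4% were lower and 31.1% higher with totals alone.

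Other transcription factors of mesenchymal transition were mostly scarce. Of 17, 10 were tested, of which 2 rose and 1 fell (median log2 fold change 0.10), and with totals alone 4 rose and 1 fell. SOX9 rose 1.63-fold (edgeR adjusted p = 0.000993) and SOX4 by a log2 of 0.18 (edgeR adjusted p = 0.0293), while TCF3, which encodes the E proteins E12 and E47, fell by 0.29. SOX4 was no longer called when RUVBL1 siRNA replicate 2 or 3, or any single control library, was left out (adjusted p from 0.0556 to 0.143). SNAI1 had 66, 92 and 66 counts with RUVBL1 siRNA, against 81, 117 and 104 with control siRNA, and was not called (edgeR adjusted p = 0.594). SNAI2 had 14, 11 and 12 counts with RUVBL1 siRNA, against 6, 7 and 7 with control siRNA, and was not called (edgeR adjusted p = 0.0608), though it was called higher with totals alone (adjusted p = 0.0413) and with the replicate block (adjusted p = 0.0315). ZEB2, TWIST2 and FOXC2 were listed at 0 in all libraries.

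Of 36 mesenchymal matrix, adhesion and cytoskeleton genes, 16 had enough counts to be tested, of which 8 fell and 1 rose (median log2 fold change -0.18), also 7 and 1 with totals alone. ITGB1, the beta chain of the fibronectin receptor, fell by 0.44 on the log2 scale, with 9682 ± 40.4 normalized counts in RUVBL1 siRNA libraries and 13180 ± 85.0 in control libraries. The actin-binding gene CALD1 fell by 0.23, and the smooth muscle actin gene ACTA2 fell by 1.33 at a low level. The gene that rose was THBS1, which encodes thrombospondin 1 of the matrix. It was named after its values were seen, with 36, 49 and 43 counts in RUVBL1 siRNA libraries and 24, 12 and 24 in control libraries (edgeR adjusted p = 0.00822). Collagen genes differed in level and in change. COL1A2 was listed at 0 throughout, as was POSTN, while COL1A1 had 185, 253 and 199 counts in RUVBL1 siRNA libraries and 201, 324 and 268 in control libraries and was not called (edgeR adjusted p = 0.975). COL6A1 was abundant and fell by 0.19 on the log2 scale, with 8803 ± 79.5 normalized counts in RUVBL1 siRNA libraries and 10050 ± 121 in control libraries. These genes too were named after their values were seen.

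TGF-beta signalling is an inducer of the transition, and its parts were counted at very different levels. TGFBR2, its type II receptor, had 0, 0 and 2 counts with RUVBL1 siRNA, against 0, 2 and 1 with control siRNA. Of the ligands, TGFB1 had at most 5 counts in a library and TGFB2 at most 3. TGFB3 had 11, 6 and 19 counts with RUVBL1 siRNA, against 0, 5 and 1 with control siRNA. Every RUVBL1 siRNA library exceeded every control library, but the closest stood at 6 counts against 5. Groups also stood apart in 52.6% of tested genes. TGFB3 did not pass the filter on low counts and was not tested. Of 17 tested genes of the pathway, 5 fell and 4 rose (median log2 fold change -0.01). With totals alone 4 fell and 5 rose (median 0.09, against 0.111 over all tested genes). BAMBI, a decoy receptor, fell by 0.81 on the log2 scale, the type I receptor gene TGFBR1 by 0.33 and the inhibitory SMAD7 by 0.52. The coreceptor gene TGFBR3 and the latency protein gene LTBP4 also fell, by 0.35 and 0.08, but LTBP4 was at 0.02 with totals alone and lost its call without any single library except control replicate 3. TGIF1, a corepressor of SMAD, rose 1.48-fold, SMAD3 1.26-fold and SMAD2 1.14-fold, and the corepressor gene SKI rose by a log2 of 0.12. SKI lost its call without RUVBL1 siRNA replicate 1 or control replicate 2 or 3 (adjusted p from 0.0845 to 0.112). TGFBR3, LTBP4 and SKI were named after their values were seen. Leaving out RUVBL1 siRNA replicate 1 or control replicate 2 ended the SMAD2 call (adjusted p = 0.0502 and 0.0591).

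Of 10 tested luminal prostate genes, 6 fell and 1 rose (median log2 fold change -0.30), and with totals alone 6 fell and 3 rose. The membrane genes STEAP2 and FOLH1 fell by 0.44 and 0.35 on the log2 scale, while ACP3, the prostatic acid phosphatase gene, rose 1.44-fold. The summed level of the 11 luminal markers ran from 3640 to 3770 CPM with RUVBL1 siRNA and from 4110 to 4210 with control siRNA. FOLH1 (1201 to 1232 against 1433 to 1457 CPM) and STEAP2 (814 to 839 against 1035 to 1060) were its largest parts. KLK3 and HOXB13 were higher in CPM in every RUVBL1 siRNA library. With TMM, KLK3, HOXB13 and TMPRSS2 were not called (edgeR adjusted p = 0.756, 0.675 and 0.668). The part of this sum in the falls of the epithelial members was not tested.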

How the data were processed

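Total RNA of 6 libraries of C4-2B-ENZR cells, 3 per group, was sequenced. The deposited values are estimated counts per Ensembl gene, not scaled to library size. The submitters' processing notes name Bowtie 0.12.2 and the builds mm8 and mm9, which conflicts with the human gene identifiers in the count files. The counter, human build, annotation and strand setting were not given in the sources used here. Sequences and lengths came from RefSeq (GRCh38.p14) and GENCODE 29 and share only names with the counts.

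Symbols matched 51996 of 57820 genes. Counts were rounded and tested in R 4.3.3 with edgeR 4.0.16 (filterByExpr, TMM, robust quasi-likelihood, two-sided, Benjamini-Hochberg over 16006 genes, threshold 0.05), and the fit was tested on simulated data. The SE is the size of the log2 fold change divided by the square root of F. Normalized counts are scaled to the mean effective library size of 26348516. No 2 libraries were identical, and the mean chi-square per gene between replicates was 1.6 to 3.13. Same-numbered libraries had deviations from their group means correlated at 0.939, 0.819 and 0.823, all over the 0.1 set for pairing, and a replicate block was an alternative. Libraries numbered 2 and 3 correlated across groups almost as closely (0.807 and 0.817), so these values set replicate 1 apart and do not match 2 with 2 or 3 with 3. Without the genes listed at 0 in both replicate 1 libraries the correlations were 0.437, 0.16 and 0.244 for the same number, and 0.143 and 0.193 between 2 and 3. The other alternatives were DESeq2 1.42.0, limma-voom (limma 3.58.1), other scalings and filters, fewer libraries and fewer genes.

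The members and lists were chosen with earlier results of these data known. Besides the members, up to 3 called genes per list and direction with the smallest adjusted p and at least 100 normalized counts on average were named. Of the genes this rule gives, 2 are not reported here. Other exceptions are stated, and ESRP2, MIR200CHG and the genes given as scarce, at 0 or not called were also named after their values were seen. Added after seeing the data were the keratin pseudogene sums, the longest transcript lengths and the permutation within pairs.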

Additional observations from a re-analysis of the deposited data

How the results depend on the processing

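Over 17 alternatives, CDH1, EPCAM, KRT8, ESRP1, GRHL2, FN1 and RUVBL1 kept their direction and their call. The log2 fold change ran from -0.20 to -0.09 for CDH1, from -0.51 to -0.39 for KRT8 and from 0.37 to 0.50 for ESRP1. KRT18 was called in all but 1, being -0.0379 with library totals alone (adjusted p = 0.308). VIM was called in none of its 16 fits and turned sign, with -0.00877 without the low-count filter, -0.12 in replicates 2 and 3 alone, and values from -0.24 to 0.24 when 1 library was left out. Library totals alone gave 4981 genes higher and 2297 lower, against 3060 and 3695 with TMM, and 32 higher genes on the other lists, against 21. The replicate block added a call for SNAI2 (log2 fold change 1.18, adjusted p = 0.0315) and changed no other call of a named gene. Among other named genes, LTBP4 (0.0172), ESRP2 (0.0331) and PDGFRB (0.0246) turned sign with totals alone. COL1A1 did so in limma-voom (-0.00502), without the low-count filter (-0.0131) and in replicates 2 and 3 alone (-0.0679). With 1 library left out, MIR200CHG ran from -0.182 to 1.33, COL1A1 from -0.048 to 0.0713 and PDGFRB from -0.154 to 0.00878. Depth limits VIM, ZEB1 and CDH2 to statements on detection.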

Other observations

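Among scarcer genes, and named after its values were seen, MYL9, a myosin light chain gene of contractile cells, had 8, 20 and 25 counts with RUVBL1 siRNA, against 96, 130 and 110 with control siRNA (log2 fold change -2.38, edgeR adjusted p = 3.97e-05).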
